A study of Drosophila melanogaster with 6 samples.

Results

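The phototransduction, eye pigment and photoreceptor genes described here are a list of 37 genes, chosen by name for their roles in light sensing, eye colour and photoreceptor identity. Of the 37, 25 had a probe set that the platform annotation maps to a single gene, among 10844 such genes on the arrays, and these 25 were read by 34 probe sets. The other 12 are not analysed here. They are the rhodopsin genes ninaE, Rh2, Rh3, Rh4, Rh5 and Rh6, the receptor kinase gene Gprk1, the phospholipase C gene norpA, the myosin gene ninaC, the cyclophilin gene ninaA, the scavenger receptor gene ninaD and the pigment transporter gene w. The label of the list therefore stands here without its opsins.

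RNA came from the brains of adult female Drosophila melanogaster of the wild-type strain CantonS, raised on corn meal food at 25 °C. Control brains (3 Affymetrix arrays, control 1, 2 and 3) came from untreated flies. Ablated brains (3 arrays, ablated 4, 5 and 6) came from flies that ate hydroxyurea, an inhibitor of DNA synthesis, at 25 mg/ml for 4 h as newly hatched larvae, which removes the mushroom bodies. Both groups share strain, sex and food. Drug and ablation always go together, so other effects of hydroxyurea and the absence of mushroom bodies cannot be told apart. The sources used here give neither the adults' age in days nor the number of brains per array. The labels tie no array to a separate culture, so the spread between arrays may be technical.

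In a fly photoreceptor, light isomerises rhodopsin, which activates a Gq protein and a phospholipase C. That enzyme cleaves a membrane phosphoinositide, and the TRP and TRPL channels open. Arrestins switch rhodopsin off, a set of lipid enzymes rebuilds the phosphoinositide, and a scaffold protein holds channel, lipase and kinase together in the rhabdomere, the light-sensing membrane stack. Photoreceptor cell bodies lie in the retina, outside the brain proper, while some of the same enzymes also work in brain neurons. For this reason the list was divided, from general knowledge, into 25 genes known mainly from the retina and its pigment cells (16 measured) and 12 genes also known from brain or many tissues (9 measured), called retina and broad genes below. This division was written with earlier results of these data known, so contrasts between the retina and broad genes are descriptions and not independent results. In whole tissue, fewer cells of a type and less RNA per cell cannot be told apart.

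The data behind the list were checked on all arrays. Median signal per array was between 13.0 and 17.6, with the highest on control 1 and the lowest on ablated 5. The 3' over 5' signal ratio from the Gapdh control probe sets, a sign of RNA integrity, was between 7.12 and 13.0. The neuronal markers elav, nSyb, brp and para were present on every array, with summed signals of 643 to 802 on control and 596 to 718 on ablated arrays. The largest part of each sum was nSyb. For 2 of them, elav and para, all ablated arrays lay below all control arrays, as in 14.8% of all tested probe sets, and nSyb and brp overlapped. The Kenyon cell gene ey, a transcription factor gene of the mushroom body, read 268, 193 and 199 on control 1 to 3 and 108, 98.2 and 120 on ablated 4 to 6. Of the Kenyon cell markers, 9 of 9 tested lay below 0 in ablated minus control brains, as did 74.1% of all tested probe sets. Signals are deposited MAS5 intensities with no further scaling, and levels are not compared between genes, since probe sets differ in response.

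Most of the 12 tested retina genes differed greatly between arrays of the same group, with the arrays of both groups interleaved, while rdgC and ninaG, described further on, did not. The widest ranges at high signal were those of the arrestins, which bind light-activated rhodopsin and end its signalling. Arr2, the major arrestin of photoreceptors (probe set 143078_at), had a signal of 1085.2, 409.4 and 42.7 on control 1 to 3 and of 832.2, 241.4 and 547.7 on ablated 4 to 6. Control 1 was highest and control 3 lowest, with all ablated arrays between them, and control 1 stood 25.4-fold above control 3. For Arr1 (152756_at), the other photoreceptor arrestin, the signal was 507.3, 206.5 and 33.4 in the controls and 415.9, 93.0 and 255.3 in the ablated brains. Its arrays fell in the same order as those of Arr2, from control 1 through ablated 4, ablated 6, control 2 and ablated 5 down to control 3, a range of 15.2-fold. Group means of the linear signal were nearly level, for Arr2 512 ± 529 (SD, n = 3) in controls against 540 ± 295 (SD, n = 3) after ablation, and for Arr1 249 ± 240 (SD, n = 3) against 255 ± 161 (SD, n = 3). On the log2 scale used for testing, ablated minus control was 0.82 for Arr2 and 0.47 for Arr1, with wide intervals that include 0. Among the 1795 tested probe sets with a mean signal of at least 100, Arr2 had the 10th and Arr1 the 12th widest range, and 2.34% of them ranged at least 4-fold.

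**Figure D1:**
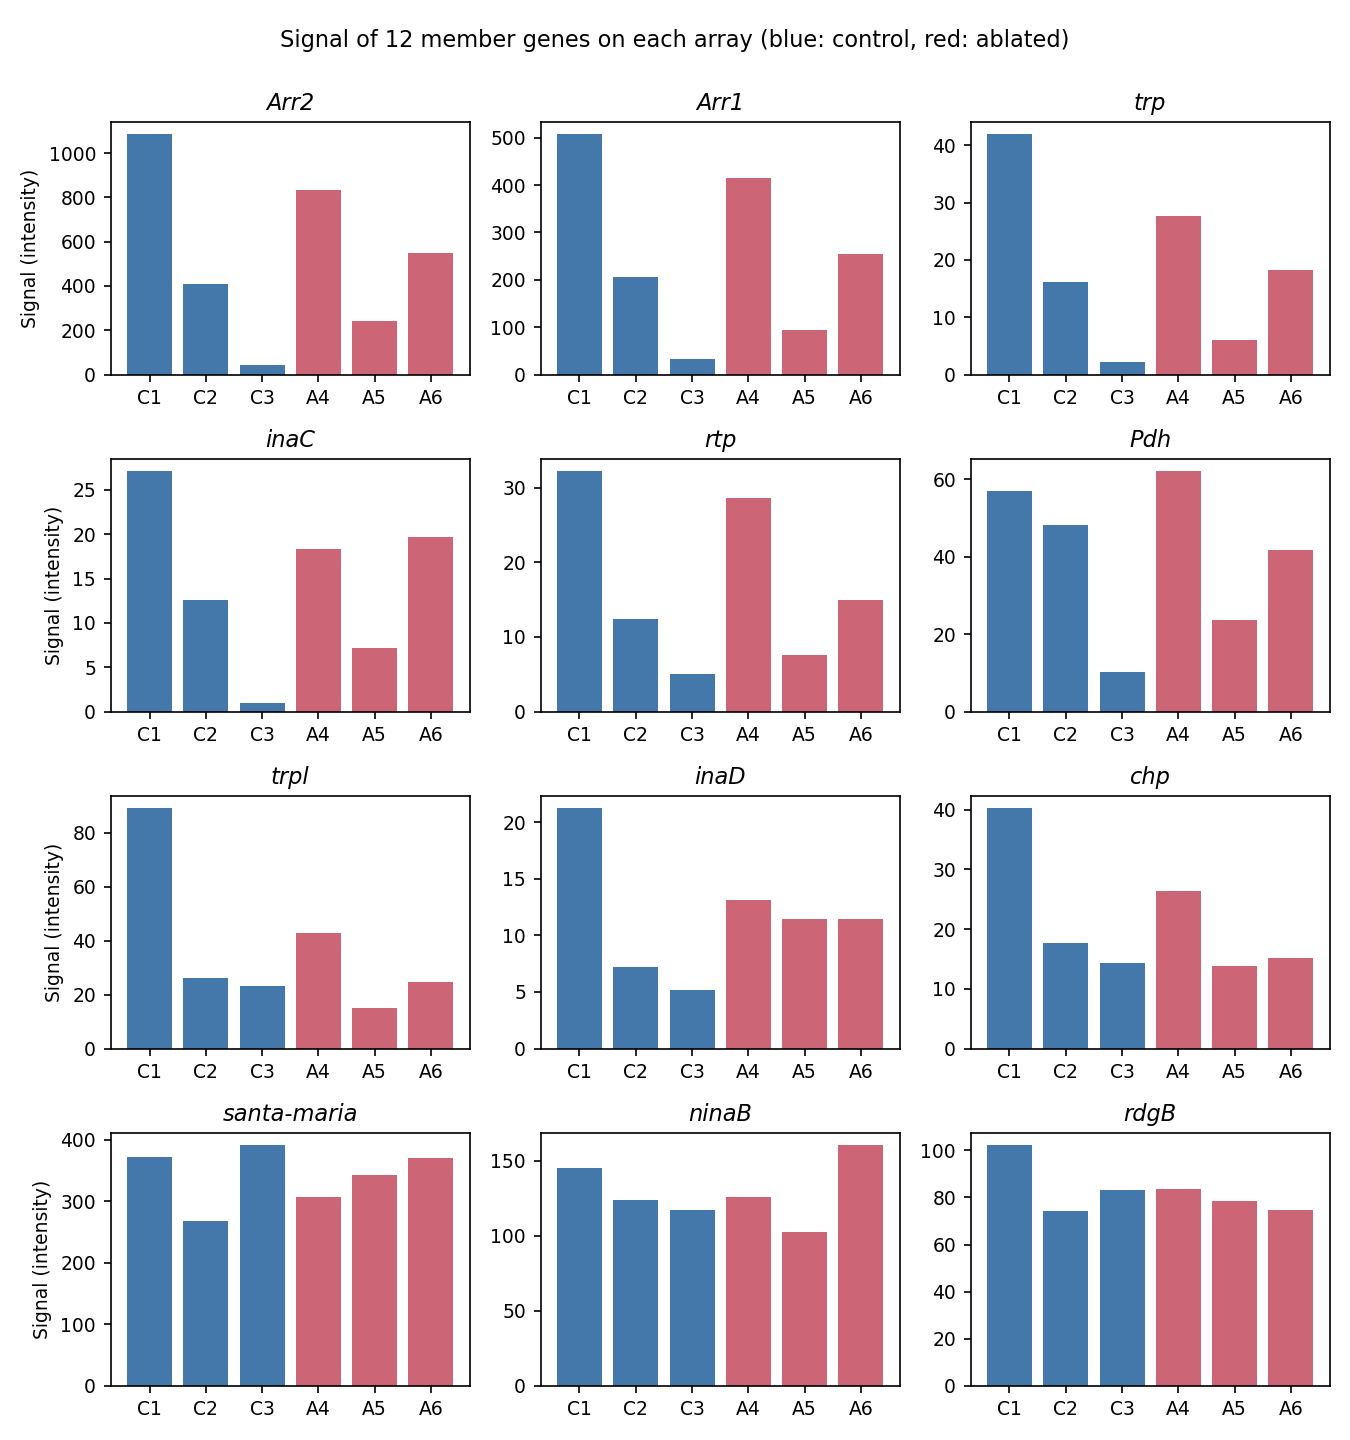
Signal (deposited MAS5 intensity, linear axis from 0, own scale per panel) of 12 of the genes on control 1 to 3 (C1 to C3, blue) and ablated 4 to 6 (A4 to A6, red), 1 bar per array. For every gene outside the bottom row, C1 and A4 are among the 3 highest arrays, and C3 is the lowest except for trpl and chp, whereas the 3 broad genes in the bottom row stay within 1.56-fold.

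Of both light-gated channel genes, trp had the array order of the arrestins and trpl did not. The gene trp (143383_at), which encodes the main light-gated calcium channel, read 41.9, 16.1 and 2.2 on control 1 to 3 and 27.6, 6.1 and 18.3 on ablated 4 to 6. Its arrays had the order seen for both arrestins, with a range of 19.0-fold whose lower end lies below the level used for testing (a mean of 9.2). The second channel gene, trpl (143554_at), measured 89.1, 26.3 and 23.1 in the controls and 42.8, 15.2 and 24.8 in the ablated brains. Control 1 again led and ablated 4 came second, but ablated 5 rather than control 3 was lowest, and the range was 5.86-fold. Trpgamma (146369_at), a broad gene for a related channel subunit, gave 14.3, 3.3 and 12.5 in the controls and 12.6, 6.4 and 17.8 in the ablated brains. It was highest on ablated 6 and lowest on control 2, so it did not share the arrays' order with trp. Calx (143737_at), the sodium-calcium exchanger gene that clears calcium after light, stayed within 2.15-fold, at 14.0, 8.9 and 11.8 in the controls and 10.5, 8.5 and 6.5 in the ablated brains. Its ablated mean of 8.50 lay under the level for testing, which it passed through its control mean of 11.6.

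Of 4 tested genes of the phospholipase C signalling complex, rtp had the array order of Arr2, inaC nearly so, and inaD and stops had other orders. For inaC (152951_at), the eye protein kinase C gene, the control arrays read 27.1, 12.6 and 1.0 and the ablated arrays 18.3, 7.2 and 19.7. Control 3 was lowest by far, and the order differed from that of Arr2 only in that ablated 6 stood above ablated 4. The rtp gene (151992_at), which encodes retinophilin, a rhabdomere protein, read 32.2, 12.4 and 5.0 in the controls and 28.6, 7.6 and 14.9 in the ablated brains, in the order of Arr2. The scaffold gene inaD (143203_at) read 21.2, 7.2 and 5.2 in the controls but 13.1, 11.4 and 11.4 in the ablated brains. Its control arrays thus spanned 4.08-fold, and its 3 ablated arrays lay close together, above control 2 and 3 and below control 1. For stops (152099_at), whose product keeps up the level of phospholipase C, the signal was 21.1, 3.8 and 4.2 in the controls and 18.1, 14.4 and 3.1 in the ablated brains, high on control 1, ablated 4 and ablated 5 and lowest on ablated 6. Its 2 dimmer probe sets (150928_at and 150929_at) were below the level for testing and were both highest on ablated 4.

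The 4 tested genes of the lipid cycle, all broad, ranged between 1.37-fold and 2.74-fold by their brightest probe sets. The gene rdgB (152278_at), for a phosphatidylinositol transfer protein, read 102.1, 74.4 and 83.0 in the controls and 83.5, 78.5 and 74.5 in the ablated brains, a range of 1.37-fold. Cds (153377_at), for the CDP-diacylglycerol synthase of phosphoinositide resynthesis, read 325.6, 309.7 and 249.0 in the controls and 247.3, 119.0 and 273.2 in the ablated brains. Ablated 5 alone was low for Cds, and the other arrays of both groups overlapped. The diacylglycerol kinase gene rdgA had its brightest probe set (152920_at) at 151.8, 55.8 and 80.8 in the controls and 74.3, 65.9 and 81.8 in the ablated brains, with control 1 standing apart. A second tested rdgA probe set (151399_at) gave 35.1, 31.6 and 41.6 in the controls and 25.5, 29.9 and 24.2 in the ablated brains, so all ablated arrays lay below all control arrays. A dim rdgA probe set (144717_at) read 22.8 on ablated 4 and at most 4.7 elsewhere. The brightest of 4 tested probe sets of inaE (145037_at), a diacylglycerol lipase gene, read 58.8, 32.3 and 37.3 in the controls and 33.5, 44.6 and 35.2 in the ablated brains, and the 4 ranged between 1.82-fold and 2.12-fold. The retina gene laza, for a phosphatidic acid phosphatase, was below the level for testing, at 4.0, 10.3 and 5.0 in the controls and 16.7, 3.9 and 3.7 in the ablated brains.

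Of the 3 tested genes that supply or regenerate the chromophore, santa-maria and ninaB were even across arrays and Pdh was not. The gene santa-maria (152891_at), for a scavenger receptor that takes up carotenoids outside the retina, read 371.9, 268.5 and 391.1 in the controls and 307.0, 343.1 and 370.6 in the ablated brains. It was highest on control 3, the array on which the arrestins were lowest. ninaB (151945_at), for the oxygenase that cleaves carotenoids to retinal, was similarly even, with 145.2, 123.8 and 117.0 in the controls and 125.9, 102.4 and 160.2 in the ablated brains. Pdh (153433_at), for a retinol dehydrogenase of retinal pigment cells, read 57.0, 48.2 and 10.3 in the controls and 62.1, 23.7 and 41.8 in the ablated brains. Control 3 and ablated 5 were its lowest arrays and ablated 4 its highest, a range of 6.03-fold.

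Rhodopsin maturation and the remaining photoreceptor genes completed the list. Although placed among the retina genes, rdgC (143446_at), for the phosphatase that acts on rhodopsin, was even, at 12.8, 15.8 and 13.2 in the controls and 11.0, 15.8 and 13.5 in the ablated brains. Whether rdgC is also expressed in brain, which would place it among the broad genes, was not checked here. For ninaG (149685_at), an oxidoreductase gene needed to make the chromophore, the arrays read 13.9, 10.7 and 12.3 in control and 10.8, 16.7 and 7.8 in ablated brains. Neither gene was highest on control 1 or lowest on control 3, and both were dim. The chp gene (142652_at), for chaoptin, an adhesion protein of rhabdomeres, read 40.2, 17.6 and 14.4 in the controls and 26.3, 13.8 and 15.2 in the ablated brains. Control 1 and ablated 4 were its 2 highest arrays, as for the arrestins.

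For 4 more genes of photoreceptor identity and eye pigment, every probe set stayed below the level for testing. The homeobox gene Pph13 (151796_at) read 0.5 to 3.7, and gl (152797_at), a zinc finger gene of photoreceptor fate placed among the broad genes, read 0.5 to 5.6. The pigment transporter genes st (153393_at) and bw (142279_at and 151510_s_at) read 1.0 to 9.2 and 0.4 to 14.8. With laza, these make 5 genes with every probe set below the level for testing, and the arrays had 20 genes of the list, 12 retina and 8 broad, above it.

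Across those 20 genes, taken by the brightest tested probe set, 10 ranged at least 4-fold over the 6 arrays, where 9.63% of all tested probe sets did. They were 9 of 12 retina genes, with rdgC, ninaG and chp below that range, and 1 of 8 broad genes, Trpgamma. The median range was 6.24-fold for retina and 1.99-fold for broad genes, against 1.82-fold for all tested probe sets. Of the 9 retina genes, 5 had their lowest array below the level for testing, as did Trpgamma, so those ranges rest on signal near background. With every value under 9.2 set to 9.2, the retina median was 3.22-fold and the broad median 1.69-fold, and 5 retina genes (Arr1, Arr2, trp, trpl and Pdh) and 0 broad genes ranged at least 4-fold, as did 2.60% of all tested probe sets. Without control 3 the retina median was 4.00-fold, with 6 of 12 genes at or above 4-fold. Both the highest signal on control 1 and the lowest on control 3 were found for 6 genes (Arr1, Arr2, trp, inaC, inaD and rtp), all in the retina group, against 6.72% of all tested probe sets. Those 6 genes also ranged at least 4-fold, and 0.847% of all tested probe sets had both these extremes and such a range. The full order of the 6 arrays seen in Arr2 was shared by Arr1, trp and rtp and was found in 0.382% of tested probe sets, 32 in all. For trp and rtp, ablated 5 and control 3 lay below the level for testing. These array counts describe the same 6 arrays that showed the pattern, and they were chosen after the values were seen. The 20 genes share those arrays, so they are not independent observations.

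**Figure D2:**
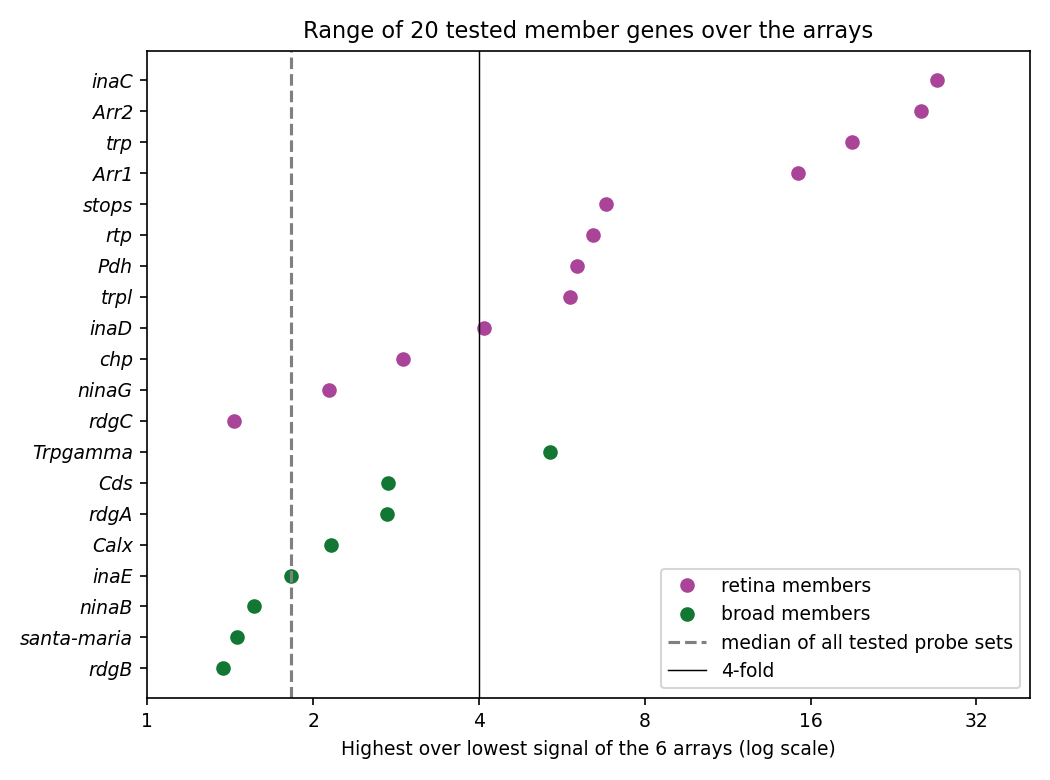
Highest over lowest signal of the 6 arrays (log axis) for the 20 genes with a tested probe set, 1 point per gene, retina genes in purple and broad genes in green. The dashed line is the median of all tested probe sets (1.82-fold) and the solid line marks 4-fold, which 9 retina genes and 1 broad gene exceed, 5 and 1 of them with a lowest array below the level for testing.

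The comparison the study was built for, ablated against control brains, gave no call in this list. It was tested with limma on log2(signal + 2.7) over 8381 probe sets, with p-values adjusted over all of them. Of 24 tested probe sets of the list, 0 passed at an adjusted p of 0.05, and 0 had an unadjusted p under 0.05. Over all probe sets, 0% passed in either direction, 7.89% had an unadjusted p under 0.05 on the lower side and 0.632% on the higher side. The list had 11 genes below 0 and 9 above, with a median log2 difference of -0.0043, while 74.1% of all tested probe sets lay below 0 with a median of -0.17. By group, 4 of 12 retina genes and 7 of 8 broad genes lay below 0, with medians of 0.21 and -0.13. The 7 include Calx, which passed the level for testing through its control mean alone. Whether retina and broad genes differ in this respect was not tested. The count below 0 depended on the scaling of the arrays, with 6 of 20 genes below 0 when array medians were made equal and 5 after quantile normalization or cyclic loess.

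The retina genes that varied most between arrays had differences with wide errors. Arr2 differed by 0.82 on the log2 scale between ablated and control brains (95% interval -1.32 to 2.96, limma adjusted p = 0.751). That interval spans a change in either direction, so these arrays do not show that the level was equal. The residual spread of Arr2 between arrays of a group ranked 19th and that of Arr1 29th from the highest among the 8381 tested probe sets. Arr1 differed by 0.47 (-1.43 to 2.38), trp by 0.15 (-1.51 to 1.80), inaC by 0.49 (-1.06 to 2.03), rtp by 0.16 (-1.11 to 1.43) and Pdh by 0.32 (-0.90 to 1.54). The sign of all 6 differences, and that of inaD, rested on control 3. Without that array they were -0.47 for Arr2, -0.58 for Arr1, -0.71 for trp, -0.35 for inaC, -0.36 for rtp, -0.38 for Pdh and -0.071 for inaD. The differences of trp and rtp also turned without ablated 4, to -0.24 for each. In the list as a whole, 17 of 20 genes lay below 0 without control 3, and 4 of 20 without control 1.

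Intervals of single genes were mostly wider for retina than for broad genes, but did not divide fully by group. The median residual spread was 0.96 for retina and 0.30 for broad genes. Among broad genes, Trpgamma had a wide interval, with a difference of 0.29 (-0.80 to 1.39), and among retina genes rdgC had a narrow one, at -0.050 (-0.65 to 0.55). The difference for santa-maria was -0.00034 (-0.39 to 0.38) and that for ninaB -0.0082 (-0.45 to 0.43). For rdgB it was -0.12 (-0.52 to 0.28). The largest shifts among broad genes were -0.54 for Cds (-1.18 to 0.10, limma adjusted p = 0.563) and -0.41 for the dimmer tested rdgA probe set (-0.84 to 0.034, limma adjusted p = 0.554). That rdgA probe set was the only one of the 24 with all ablated arrays below all controls, as in 14.8% of all tested probe sets, and 0 of the 24 had every ablated array above, as in 1.26%. Of the inaE probe sets, 3 lay below 0 and 1 above.

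**Figure D3:**
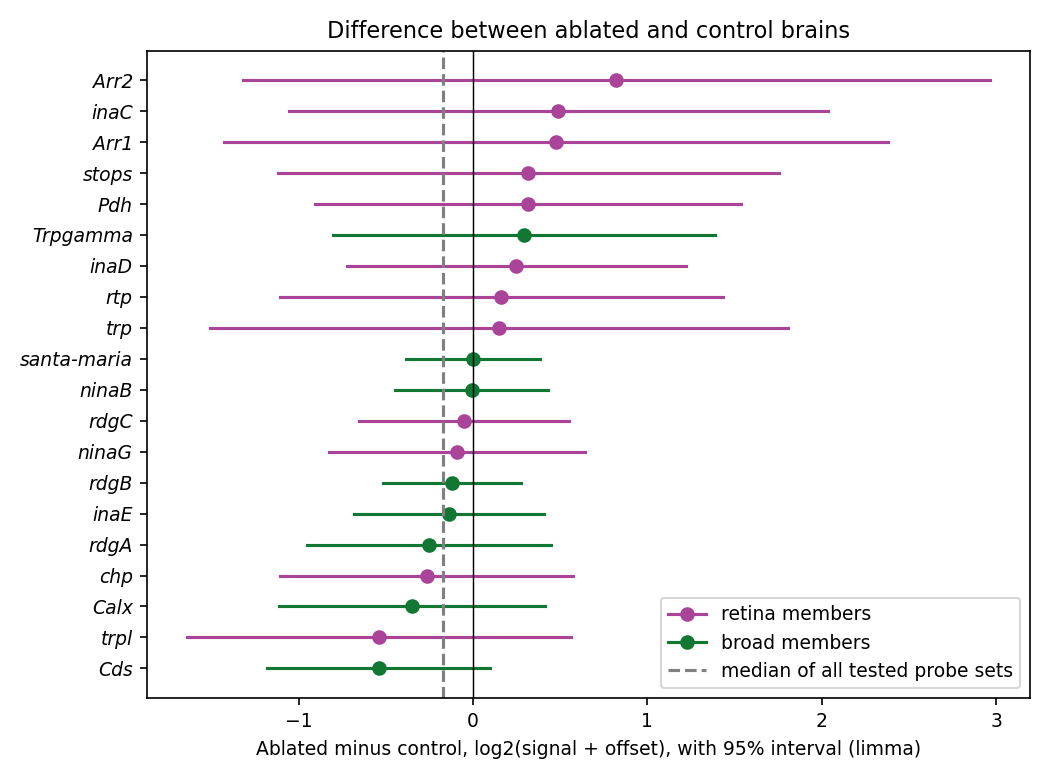
Ablated minus control difference on the log2(signal + 2.7) scale for the 20 genes with a tested probe set (points), with 95% limma intervals (lines), retina genes in purple and broad genes in green. All 20 intervals include 0, and they are widest for Arr2, Arr1, trp and inaC.

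Other genes of the light response and of the eye were read from lists written with earlier results of these data known. Of 9 tested further phototransduction genes, 0 passed the limma test and 7 lay below 0, as did 74.1% of all tested probe sets. The median log2 difference of the 9 was -0.27, against -0.17 for all tested probe sets. The smallest p values in that group belonged to Ggamma30A (146077_at), a gamma subunit gene of the photoreceptor G protein, at -0.80 (unadjusted p = 0.0247, limma adjusted p = 0.554), and PIP5K59B (151562_at), a phosphoinositide kinase gene, at -0.41. Gbeta76C (153427_at), the eye-enriched G protein beta subunit gene, read 22.6, 17.2 and 1.4 in the controls and 15.2, 8.0 and 25.5 in the ablated brains. It was lowest on control 3 and next lowest on ablated 5, as were Arr1 and Arr2, but highest on ablated 6, and it was named after its values were seen. It was the 1 gene of these 9 with a range of at least 4-fold. Its control 3 and ablated 5 values lay below the level for testing, so that range rests on signal near background. Galphaq (151734_at), for the photoreceptor G protein alpha subunit, ranged 2.43-fold and was lowest on ablated 5, and Ggamma30A was lowest on ablated 6.

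Among genes for histamine, the photoreceptor transmitter, 2 were tested and 0 passed. The receptor gene ort (150213_at), expressed in the lamina neurons that photoreceptors contact, was even at 88.8, 78.9 and 82.1 in the controls and 81.3, 69.3 and 85.6 in the ablated brains. The gene e (152932_at), which encodes the enzyme that inactivates histamine in optic lobe glia, ranged only 1.23-fold. Hdc (143557_at), for the enzyme that makes histamine, was below the level for testing and read 15.2, 5.9 and 4.4 in the controls and 11.8, 5.5 and 8.0 in the ablated brains. Its arrays had the order of Arr2, and it too was named after its values were seen.

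Of 12 tested genes for other eye pigment functions, several of which act in vesicle traffic in all cells, 0 passed and 10 lay below 0. Of all tested probe sets, 74.1% lay below 0. The median of the 12 genes was -0.25, against -0.17 for all tested probe sets. The smallest p values were those of lt (143240_at), a vacuolar sorting gene, at -0.66 (unadjusted p = 0.00391, limma adjusted p = 0.554), and of car (154099_at), another such gene, at -0.45. In 3 of the 12 genes, lt and car among them, all ablated arrays lay below all control arrays, as in 14.8% of all tested probe sets. Lens and rhabdomere structure genes had 3 tested members, of which 0 passed. Among them retinin (152610_at), a gene of the corneal lens, read 44.9, 13.8 and 42.3 in the controls and 53.8, 10.0 and 7.4 in the ablated brains, and Cpr72Ec (151927_at), for a cuticle protein of the eye, read 39.1, 16.5 and 15.3 in the controls and 34.7, 13.8 and 11.4 in the ablated brains. Control 3 was thus high for retinin, and low for the arrestins. The lowest p for this group belonged to eys (145635_at), a secreted rhabdomere spacer gene, at -0.36.

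Markers of other tissues were set beside the retina genes on the same arrays. Antennal markers, mainly odorant-binding proteins, had 6 of 8 genes measured, with sums of 37.0 to 48.7 on control and 63.5 to 1099 on ablated arrays. Obp19d made up the largest part of each antennal sum. The highest sum was on ablated 5, where Arr1 and Arr2 were near their lowest. Muscle markers had 8 of 11 genes measured, with sums of 88.2 to 644 on control and 233 to 1130 on ablated arrays, highest on ablated 5 and control 2. The largest part of each sum was Mlc2. Act88F (143061_at), a dimmer muscle marker, had another order, at 6.8, 1.0 and 8.5 in the controls and 40.3, 5.2 and 3.2 in the ablated brains. Fat body markers, with 6 of 6 genes measured, had sums of 10937 to 24588 on control and 15263 to 19434 on ablated arrays. Of those 6, 4 were highest on control 1 and lowest on control 3, as were the 6 retina genes above. They were the yolk protein genes Yp1, Yp2 and Yp3 and fbp, which encodes an enzyme of sugar synthesis. Lsp2 (143239_at), a storage protein gene, read 1414 on control 1 and 144.6 to 687 on the other arrays. Fbp1 (143158_at), the remaining fat body marker, was highest on ablated 6 and lowest on ablated 5. It was dim, at 8.2, 12.7 and 7.5 in the controls and 19.4, 5.2 and 21.6 in the ablated brains. Glial markers, with 7 of 8 measured, had sums of 2456 to 2885 on control and 2048 to 2627 on ablated arrays, of which Gs2 was the largest part. No marker of these lists was listed at 0, but some antennal and muscle markers read below the level for testing on most arrays. The part of any of these tissues in the retina genes' values was not tested. The 3' over 5' ratio of Gapdh was 13.0, 7.18 and 12.7 for control 1 to 3 and 9.37, 10.5 and 7.12 for ablated 4 to 6, and that of the actin control probe sets 19.4, 13.0 and 17.3 and 12.5, 17.2 and 14.5. The part of RNA integrity in these values was not tested.

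The list medians by array, as log2 deviations from the control mean, put these sets side by side. Retina genes stood at 1.15, 0.039 and -0.86 on control 1 to 3 and at 0.87, -0.32 and 0.17 on ablated 4 to 6. Broad genes stood at 0.24, -0.31 and -0.085 on control and at -0.12, -0.32 and -0.10 on ablated arrays. All tested probe sets moved between 0.14 on control 1 and -0.26 on ablated 5. The span between the highest and lowest array was 2.01 for retina genes, 0.57 for broad genes and 0.39 for all tested probe sets.

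**Figure D4:**
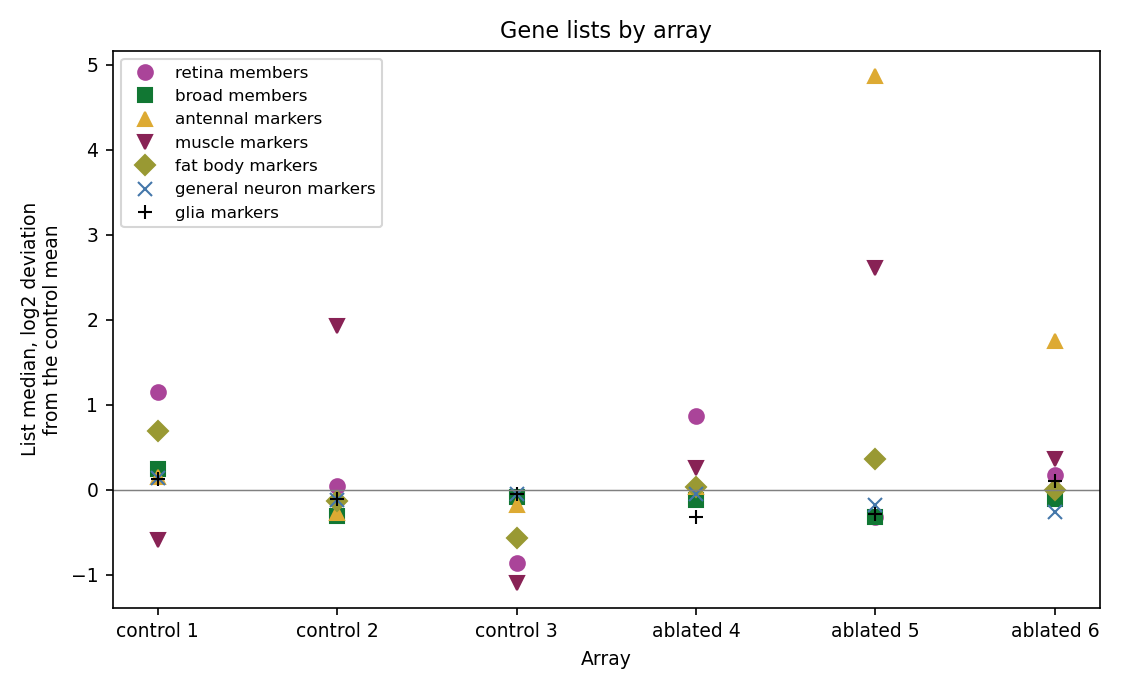
Median log2 deviation from the control mean of 7 gene lists (symbols, see key) on each of the 6 arrays, from log2(signal + 2.7). Retina genes are high on control 1 and ablated 4 and low on control 3, antennal markers are high on ablated 5 and 6, muscle markers on ablated 5 and control 2, and general neuron and glia markers stay within 0.46 from lowest to highest array.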

How the data were processed

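The values deposited by the authors are linear intensities, 1 for each probe set on each array, made with MAS5 per the submitters' processing notes, with settings not given in the sources. Arrays were used as deposited, without further scaling. Affymetrix control probe sets (44 of 14010) were left out. Symbols come from the platform annotation, updated through the gene identifier for 12394 of the 12443 probe sets with 1 gene; coordinates are not given. Tests used log2(intensity + 2.7), an offset at the 20th percentile of the table, which understates differences of dim genes. The 8381 probe sets with a mean of at least 9.2, the 40th percentile, were tested with limma 3.58.1 in R 4.3.3 (lmFit, eBayes with intensity trend, two-sided, no covariates, Benjamini-Hochberg over all probe sets). The script was tested on simulated data. No pair of arrays shared more than 1.52% of values. The number of arrays limits the precision. Every gene of the list was to be named, and, of each other list, those that passed or at most 2 with the smallest p. Gbeta76C, Hdc, Cpr72Ec, Lsp2, Yp1, Yp3, fbp, Galphaq, Act88F, nSyb and brp stand outside that rule. Genes and lists were chosen with earlier results of these data known. A planned search of promoters for a motif was not run, as no sequences were used here. Alternatives covered array scaling, offset, filter, variance model and each array left out.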

Additional observations from a re-analysis of the deposited data

How the results depend on the processing

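No call in the list arose under any of 13 alternative settings, among which the lowest adjusted p of a gene of the list was 0.363 (limma), and the counts over all probe sets stayed at 0. The span of array medians of retina genes was between 1.70 and 2.01 with 1 array left out and 1.73 with equal array medians, that of broad genes between 0.26 and 0.57. Genes ranging at least 4-fold numbered 9 under each other scaling and 7 to 10 with 1 array left out, and those highest on control 1 and lowest on control 3 numbered 6 with equal array medians and 5 after quantile normalization or cyclic loess (both added after the data were seen). For retina genes the median range, 6.24-fold in the deposited values, was 3.22-fold with values under 9.2 set to 9.2 and 4.00-fold to 6.24-fold with 1 array left out, and that of broad genes 1.69-fold and 1.51-fold to 1.99-fold, a later addition too. Direction changed for 18 of 20 genes under some setting, with Cds and Calx the exceptions, of which Calx passed the level for testing through its control mean alone, and the cause was not tested. The number of genes below 0 was 6 with equal array medians, 5 after quantile normalization and 5 after cyclic loess, and 4 to 17 with 1 array left out. These scalings moved the median of all tested probe sets from -0.17 to -0.053, -0.024 and 0.0028. The lower probe set of rdgA, with no overlap in the deposited values, overlapped under all 3 scalings (0 probe sets lower), and with 1 array left out 1 to 4 probe sets were lower and 0 to 1 higher, where fewer arrays make overlap rarer. Under equal medians, quantile normalization and cyclic loess in turn, the difference turned to 0.0060, 0.068 and 0.089 for rdgB, 0.057, 0.046 and 0.081 for rdgC, 0.016, 0.0074 and 0.030 for ninaG, 0.12, 0.18 and 0.20 for ninaB and 0.13, 0.15 and 0.18 for santa-maria, and under the last 2 to 0.020 and 0.049 for inaE. With an offset of 16 that of trp was -0.011. With 1 array left out the differences ran from -0.58 to 1.33 for Arr1, -0.47 to 1.82 for Arr2, -0.71 to 0.89 for trp, -0.88 to 0.043 for trpl, -0.18 to 0.61 for Trpgamma, -0.35 to 1.15 for inaC, -0.071 to 0.73 for inaD, -0.36 to 0.73 for rtp and -0.037 to 0.93 for stops. They ran from -0.30 to 0.10 for inaE, -0.57 to 0.13 for rdgA, -0.22 to 0.0029 for rdgB, -0.15 to 0.062 for rdgC, -0.33 to 0.12 for ninaG, -0.17 to 0.15 for ninaB, -0.17 to 0.10 for santa-maria, -0.38 to 0.72 for Pdh and -0.53 to 0.14 for chp. No paired analysis was possible because the arrays of the groups share no replicate numbers. Dim genes are limited by signal close to background.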

Other observations

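Beyond the list, 3 other named genes had the array order of Arr2 and a range of at least 4-fold, chosen after the values were seen. SmydA-8 (142987_at) read 20.3, 7.1 and 2.2 on control 1 to 3 and 14.5, 7.1 and 12.2 on ablated 4 to 6. CG1750 (154016_at) read 15.1, 9.9 and 1.6 in the controls and 10.5, 8.8 and 10.0 in the ablated brains. Cln3 (148976_at), the fly homologue of a lysosomal membrane protein gene, read 19.8, 8.0 and 4.9 in the controls and 17.0, 5.8 and 10.9 in the ablated brains. All 3 were dim, with control 3 below the level for testing in each.

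Of the 71 tested probe sets that were highest on control 1, lowest on control 3 and ranged at least 4-fold, 7 had the full order of Arr2. Those of fit and Glt were among the others, and their ablated arrays stood in another order than those of Arr2. Both genes were chosen after the values were seen. The gene fit (150335_at), a female-enriched gene of head fat body, read 1060, 158.0 and 73.7 in the controls and 217.4, 330.7 and 401.9 in the ablated brains, and Glt (141472_at), a secreted glycoprotein gene, read 233.1, 83.8 and 48.1 in the controls and 121.2, 160.8 and 108.1 in the ablated brains. Ablated 5 stood above ablated 4 for both genes and below ablated 4 for Arr1, Arr2, trp, inaC and rtp. Among the rest of the 71 both arrangements occurred, with ablated 5 above ablated 4 for UK114 and below it for Paics, for example.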
